A study of Mus musculus with 21 samples.

Results

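The miRNAs of the mouse cochlea were compared between the day of birth (P0) and postnatal day 16 (P16), when the ear has passed the onset of hearing. The comparison used 8 small RNA libraries of the 21 in the series, namely 4 of P0 cochlea and 4 of P16 cochlea, chosen by the organ and time point of their labels, and all 1647 listed miRNAs. Of these, 797 exceeded 1 CPM (a count scaled by the total of its library) in at least 2 replicates of P0 or of P16 and were tested. All mice were wild type (C57BL/6JOlaHsd), no treatment was given, and the tissue is labelled as cochlear sensory epithelium. According to the methods of the study, the epithelia were dissected from inner ears of several mice of both sexes. The methods do not say outright how many ears or mice made up each cochlear sample. The 2 libraries of embryonic cochlea (E16) came from the same strain, were part of the fit and are given beside the other values. The labels do not tie replicates to separate litters or cultures, so p-values measure the spread between these samples. An exact permutation test of 4 libraries against 4 cannot fall below 0.0286.

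A miRNA is cut from a hairpin precursor, from which the 5′ arm (5p) or the 3′ arm (3p) is loaded into a silencing complex. Bases 2 to 8 of the mature miRNA, the seed, pair with target transcripts, and miRNAs that share a seed can share targets. In the inner ear, the miR-183 cluster is known from hair cells, and mutations of miR-96 cause hearing loss. Between birth and the onset of hearing, hair cells, supporting cells and nerve fibres mature and the spiral ganglion becomes myelinated.

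The libraries were shallow. The P0 libraries held 180671 to 207336 counts and the P16 libraries 124400 to 199418, so that a single count was worth 4.82 to 8.04 CPM. Counts are therefore given throughout, and levels are CPM after TMM scaling, which centres libraries on the miRNAs that change least. P16 replicate 2 stood apart from the other libraries. miR-125a-5p and miR-125b-5p took 58.4% of its counts, against 34.5 to 42.1% in the other P16 libraries and 42.9 to 49.1% at P0, and its TMM factor was 0.647 against 0.856 to 1.08 in the other 7 libraries. The mean GC content of the counts was 51.2 to 51.4% at P0, 51.1% in P16 replicate 2, 48.8 to 49.4% in the other P16 libraries and 49.2 to 49.4% at E16. The part of this composition in the results was not tested beyond refits without P16 replicate 2 and with the GC trend removed, whose counts are given beside several lists.

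A miRNA was called when its FDR in edgeR's quasi-likelihood test was under 0.05, its levels changed by more than 1.5-fold and the 4 libraries of one age did not overlap those of the other. This identified 97 miRNAs, or 12.2% of those tested. Of these, 37 were induced at P16 (4.64%) and 60 were repressed (7.53%). The number of calls in each list below is to be read beside these shares. The FDR alone was met by 130 miRNAs (16.3%), the criterion on overlap alone by 146 (18.3%) and an unadjusted p under 0.05 by 241 (30.2%). The split moved with the criterion on overlap and with the composition of the libraries. With that criterion left out, 66 miRNAs were induced and 64 repressed, so the excess of repressed miRNAs depends on it. Without P16 replicate 2 there were 61 induced and 73 repressed miRNAs, 95 of the original 97 among them, and with the GC trend removed there were 51 induced and 54 repressed. Depth also set what could be called. Among those that averaged 100 CPM or more at either age, 78 of 252 were called, which is 31%, whereas among the others 19 of 545 were called, or 3.49%. The median log2 fold change over all tested miRNAs was 0.10, and no called miRNA changed direction under any of the 22 alternative settings.

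**Figure D1:**
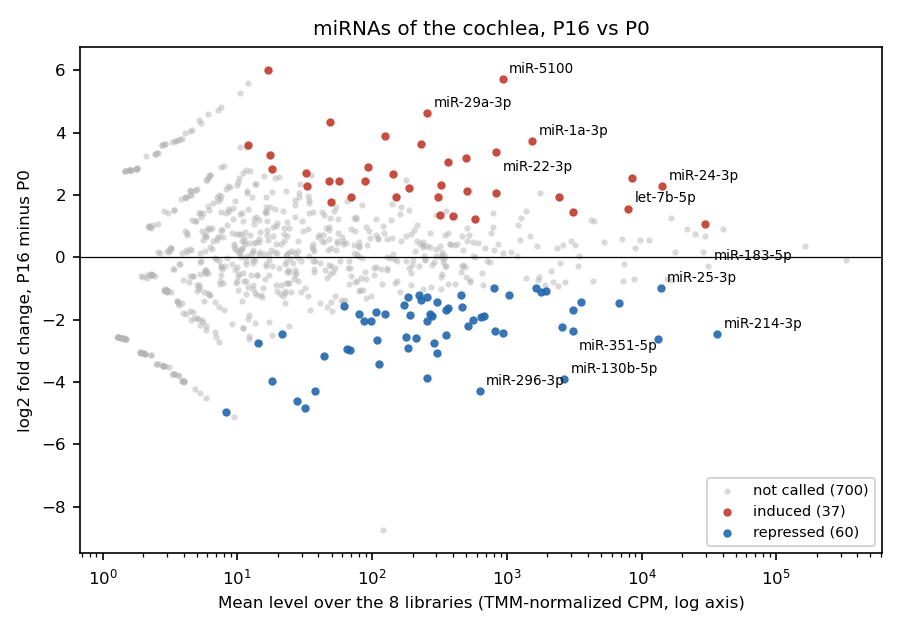
Log2 fold change of each of the 797 tested miRNAs (P16 minus P0, y axis) against its mean level in TMM-normalized CPM over the 8 libraries (log x axis), with the 37 induced miRNAs in red, the 60 repressed in blue and the rest in grey. The calls lie mostly to the right, where 78 of the 252 that averaged 100 CPM or more at either age were called; the curved rows of grey points at the left are miRNAs with a few counts in all, and the lowest grey point is miR-8117, with 147 counts in P0 replicate 3, 4 in P0 replicate 1 and none in the other 6 libraries.

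Of the 97 called miRNAs 87 had a mature sequence in RefSeq (GRCm38.p6), and these carried 81 distinct seeds. The seeds held by 2 or more called miRNAs are shown because in each of them the called members moved the same way. Capitals mark the seed. The first set shares AGCACCA and was induced:
miR-29a-3p: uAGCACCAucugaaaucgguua
miR-29b-3p: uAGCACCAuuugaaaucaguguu
The next 3 miRNAs come from separate hairpins, share AUUGCAC and were repressed, while miR-32-5p with this seed was not called:
miR-25-3p: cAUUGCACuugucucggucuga
miR-92a-3p: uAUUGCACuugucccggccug
miR-92b-3p: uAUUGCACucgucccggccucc
Both of the following share AAAGUGC and were repressed, while miR-20b-5p, shown for comparison, and miR-17-5p, miR-106a-5p and miR-106b-5p with the same seed were not called:
miR-93-5p: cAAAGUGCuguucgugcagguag
miR-20a-5p: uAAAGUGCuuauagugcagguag
miR-20b-5p: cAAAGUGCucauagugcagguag
In the AGCAGCA group, miR-322-5p and miR-15b-5p were repressed, and miR-16-5p, shown for comparison, miR-195a-5p and miR-497a-5p were not called:
miR-322-5p: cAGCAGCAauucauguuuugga
miR-15b-5p: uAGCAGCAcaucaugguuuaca
miR-16-5p: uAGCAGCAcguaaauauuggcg
The 3p arms of Mir7-2 and Mir7b share AACAAGU and were repressed, while miR-7a-1-3p from Mir7-1, with another seed, was not called (log2 fold change 0.49):
miR-7a-2-3p: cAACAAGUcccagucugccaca
miR-7b-3p: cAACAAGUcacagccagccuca

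For single changes of large size, these sequences belong to miRNAs described below. The first 4 were induced and the last 4 repressed:
miR-5100: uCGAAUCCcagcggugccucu
miR-22-3p: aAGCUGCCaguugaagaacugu
miR-338-3p: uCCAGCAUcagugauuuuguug
let-7b-5p: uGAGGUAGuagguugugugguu
miR-214-3p: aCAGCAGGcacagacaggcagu
miR-130b-5p: aCUCUUUCccuguugcacuacu
miR-296-3p: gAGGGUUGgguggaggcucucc
miR-351-5p: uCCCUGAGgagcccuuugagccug
The seed of miR-351-5p is that of miR-125a-5p and miR-125b-5p, which were not called.

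The hair cell cluster served as a check of the tissue. Its main products were present in every library, without a call between birth and P16. miR-183-5p, its most counted member, had 6734, 6771, 5514 and 5840 counts at P0 and 5808, 2050, 5365 and 4058 at P16. Its level was 34217 ± 1800 CPM at P0 and 27906 ± 8401 at P16 (SD, n = 4 each), a log2 fold change of -0.29 (SE 0.33, FDR 0.584 in edgeR). P16 replicate 2 was the lowest library, and the 2 ages overlapped. miR-182-5p had 364, 268, 200 and 244 counts at P0 and 477, 93, 409 and 230 at P16, and its log2 fold change was 0.37 (SE 0.34, edgeR FDR 0.471). For miR-96-5p, the deafness gene of the cluster, counts of 6, 7, 3 and 7 at P0 and 14, 1, 9 and 7 at P16 gave a log2 fold change of 0.64 with an SE of 0.64, so a change of this size was not detectable at this depth. Before birth, at E16, miR-96-5p had 41 and 46 counts in deeper libraries.

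In contrast to these main arms, 2 of the 3 opposite arms of the cluster fell. miR-182-3p had 9, 5, 5 and 6 counts at P0 and 0, 1, 0 and 0 at P16, a ratio of P0 to P16 of 20.9 with a 95% counting interval from 3.42 to 858. miR-183-3p had 65, 48, 60 and 87 counts at P0 against 36, 26, 22 and 8 at P16, a log2 fold change of -1.28 (SE 0.40, edgeR FDR 0.0101). The levels of miR-183-3p did not overlap between the ages, but its FDR rose to 0.0768 without P0 replicate 4 and to 0.074 without P16 replicate 4.

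Markers of epithelium were present at both ages. Of 11 tested arms of miR-200, miR-203 and miR-205, which mark epithelia, 1 was repressed and none was induced, against 7.53% and 4.64% of all tested miRNAs. The median log2 fold change was -0.27, against 0.10 over all tested miRNAs. The repressed member was miR-200c-3p, with 480, 540, 409 and 498 counts at P0 and 293, 128, 179 and 170 at P16 (log2 fold change -1.09, SE 0.34, edgeR FDR 0.00982), a call that limma did not make. Without P16 replicate 2 the list had 1 induced arm, miR-200a-3p, and 2 repressed arms with a median of -0.01, and DESeq2 called 3 repressed. The level of miR-200c-3p fell from 2648 ± 80.5 to 1239 ± 208 CPM. miR-429-3p, which shares the miR-200 family's role in epithelial identity, had a mean of 3388 ± 918 CPM at P0 and 3515 ± 1686 at P16, and its FDR was 0.928.

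The miR-29 family was induced in every arm that was called. Its members target collagens and other extracellular matrix transcripts and accumulate in maturing tissues. All 6 tested arms had a positive log2 fold change, 3 were induced, and the median was 3.51. Since miR-29b-3p and miR-29c-3p had 0 counts in every P0 library, they were tested through P16 alone. This fixed their sign, so they do not add to the count of positive arms, and the median rests in part on their fitted values. The call of miR-29b-3p has the same limit. miR-29a-3p had 6, 0, 8 and 0 counts at P0 and 205, 78, 31 and 15 at P16, so every P16 library lay above every P0 library although the P16 libraries spread widely. Its mean level rose from 20.9 ± 25.4 to 494 ± 428 CPM, a log2 fold change of 4.61 (SE 0.50, edgeR FDR 5.1e-18). miR-29b-3p was at 0 in all P0 libraries and had 11, 4, 5 and 2 counts at P16, at least 2.04-fold higher when P0 is set at 3 counts per library. It was also present before birth, with 5 and 9 counts at E16. miR-29b-2-5p rose from 4, 4, 0 and 3 counts to 25, 9, 6 and 12 (log2 fold change 2.43, SE 0.71, edgeR FDR 0.00542). The third member of this seed group, miR-29c-3p, had 0 counts at P0 and 5, 2, 0 and 1 at P16 and was not called. Mir29a and Mir29b-1 lie within one stretch of chromosome 6 (chr6:31062660-31063093, minus strand, GRCm38), outside any gene annotated on that strand. miR-29b-3p is also made from Mir29b-2 on chromosome 1.

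The let-7 family, which promotes differentiation and rises late in development in many animals, was a case in which a single library decided the calls. Of 17 tested arms of let-7 and miR-98, 2 were induced and 1 repressed, against 4.64% and 7.53% of all tested miRNAs. Without P16 replicate 2 there were 8 induced and 1 repressed. Both induced members came from Mirlet7b on chromosome 15. let-7b-5p had 527, 799, 750 and 823 counts at P0 and 1659, 1191, 1877 and 2301 at P16, and rose from 4025 ± 892 to 11852 ± 3940 CPM (log2 fold change 1.56, SE 0.33, edgeR FDR 5.34e-05). The other arm, let-7b-3p, rose from 1674 ± 498 to 4575 ± 2116 CPM (log2 fold change 1.45, edgeR FDR 0.000244). let-7c-5p shows the effect of P16 replicate 2. Its levels were 11992, 15482, 15463 and 17811 CPM at P0 and 26066, 12182, 32581 and 42915 at P16, where replicate 2 alone fell among the P0 values. Its log2 fold change of 0.90 (edgeR FDR 0.0398) was not a call because of this overlap, and it was 1.16 without that library. In the opposite direction, let-7c-1-3p fell from 78, 117, 261 and 128 counts to 41, 41, 11 and 17 (log2 fold change -2.21, SE 0.39, edgeR FDR 3.47e-07).

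Of the miR-30 family, whose members act in the differentiation of many tissues, all 9 tested arms had positive values and 2 were induced, with a median of 1.04. miR-30b-5p had 66, 34, 71 and 58 counts at P0 and 602, 126, 112 and 73 at P16, where replicate 1 was far above the others (log2 fold change 2.05, SE 0.36, edgeR FDR 4.07e-07). miR-30a-3p rose from 178 ± 29.7 to 460 ± 131 CPM (log2 fold change 1.37, edgeR FDR 0.00545). Without P16 replicate 2, 4 arms of this family were induced, as under DESeq2, and with the GC trend removed 3 of 5.

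Several groups tied to growth and the cell cycle held repressed miRNAs and no induced ones. In the cluster of miR-322, miR-503, miR-351, miR-542 and miR-450 on the X chromosome, which acts on cell cycle exit and growth, 6 of 10 tested arms were repressed and none was induced, with a median log2 fold change of -1.89. miR-351-5p had 1060, 1044, 855 and 815 counts at P0 and 123, 217, 119 and 118 at P16. Its level fell from 5194 ± 513 to 998 ± 473 CPM (log2 fold change -2.38, SE 0.35, edgeR FDR 4.13e-10). At E16 the mean was 4960 CPM, and the step from E16 to P0 gave an FDR of 0.944. Its other arm, miR-351-3p, had 17, 13, 15 and 12 counts at P0 and 1, 2, 1 and 1 at P16, a ratio of P0 to P16 of 9.53 (95% counting interval 3.85 to 30.5). miR-503-3p fell from 51, 51, 37 and 48 counts to 21, 7, 17 and 10 (log2 fold change -1.53, SE 0.44, edgeR FDR 0.00465). miR-322-5p had already dropped by P0, from a mean of 8643 CPM at E16 to 1443 ± 769 at P0 (edgeR FDR 1.65e-09), and stood at 620 ± 300 at P16. The P16 step of miR-322-5p, with a log2 fold change of -1.21 and an edgeR FDR of 0.00376, was not a call without P0 replicate 1 (-0.80, FDR 0.145), without either E16 library, or under several other settings, among them RLE size factors, library totals, DESeq2 and limma. For the whole list, DESeq2 called 4 arms, and with only the 8 libraries of P0 and P16 in the fit 3 were called, as miR-322-5p, miR-322-3p and miR-542-3p no longer were. The called hairpins Mir542, Mir503 and Mir322 lie within chrX:53049403-53054349 on the minus strand.

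The same held for the clusters known for their role in proliferation. Of 8 tested arms of the miR-17-92 cluster 3 were repressed, with a median of -1.75, and of 10 tested arms of the miR-106b-25 and miR-106a-363 clusters 4 were repressed, with a median of -1.21. None of either was induced. miR-92a-3p fell from 1066 ± 235 CPM to 292 ± 123 (log2 fold change -1.87, SE 0.37, edgeR FDR 7.21e-06). miR-20a-5p had 60, 34, 23 and 26 counts at P0 and 18, 1, 7 and 9 at P16 (log2 fold change -1.81, SE 0.44, edgeR FDR 0.000422), after a mean of 1377 CPM at E16. miR-18a-3p from the same transcript fell from 29, 29, 16 and 29 counts to 5, 8, 5 and 2. These 3 hairpins are exonic in the lincRNA Mir17hg (chr14:115043851-115044506, plus strand), but miR-92a-3p is also made from Mir92-2 on the X chromosome. miR-20b-5p, encoded on the X chromosome, had only 4, 1, 1 and 5 counts at P0 and 3, 0, 2 and 5 at P16, so that no change could be resolved (log2 fold change 0.12, SE 0.85).

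From the Mcm7 gene, which encodes a subunit of the replicative helicase and carries Mir25, Mir93 and Mir106b (chr5:138165321-138165818, minus strand), 4 arms were repressed. miR-93-5p had 1196, 925, 736 and 919 counts at P0 and 378, 135, 367 and 296 at P16, and fell from 5184 ± 847 to 1908 ± 608 CPM (log2 fold change -1.44, SE 0.33, edgeR FDR 0.000239). miR-106b-3p fell further, from 177, 226, 153 and 190 counts to 59, 54, 22 and 30 (log2 fold change -1.90, edgeR FDR 5.75e-06). miR-25-3p was the weakest of them. Its levels were 18844, 16691, 18523 and 19346 CPM at P0 and 14084, 6130, 8644 and 8347 at P16 (log2 fold change -0.98, edgeR FDR 0.0232). Its FDR rose to between 0.0502 and 0.0768 without any of P0 replicates 2, 3 and 4 or P16 replicates 3 and 4. At E16 its mean was 64205 CPM, and the log2 change from E16 to P0 was -1.81.

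The seed of miR-25-3p is also carried by a product of Mir92b on chromosome 3, where both arms were repressed. miR-92b-3p, known from neural progenitors, had 3440, 4320, 4119 and 4421 counts at P0 and 445, 810, 491 and 387 at P16. The drop from 22614 ± 3583 to 3684 ± 1797 CPM (log2 fold change -2.62, SE 0.35, edgeR FDR 4.42e-12) was accompanied by miR-92b-5p, with a log2 fold change of -2.03. miR-32-5p, of the same seed, had 0, 0, 1 and 1 counts at P0 and 6, 0, 6 and 0 at P16 and was not called, with a log2 fold change of 2.53 (SE 1.18, edgeR FDR 0.128). Within the miR-15 and miR-16 family, miR-15b-5p fell from 151, 132, 108 and 118 counts to 36, 36, 42 and 24 (log2 fold change -1.60, edgeR FDR 0.000239). In the same Smc4 intron lies Mir16-2, but miR-16-5p, which is also made from Mir16-1 on chromosome 14, had counts of 152, 92, 42 and 106 at P0 and 193, 63, 259 and 130 at P16, and the 2 ages overlapped. Of the 8 tested arms of this family 1 was repressed and none induced, and without P16 replicate 2, miR-16-5p and miR-195a-5p were induced.

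Further repressed miRNAs of large effect came from Mir130b, Mir7-2, Mir7b and imprinted loci. miR-130b-5p had 514, 733, 1365 and 889 counts at P0 and 110, 46, 38 and 20 at P16, and fell from 5006 ± 2666 to 331 ± 177 CPM (log2 fold change -3.91, SE 0.38, edgeR FDR 1.39e-22). Its partner arm miR-130b-3p fell from 69, 65, 43 and 63 counts to 9, 8, 5 and 4 (log2 fold change -2.92, SE 0.45, edgeR FDR 3.98e-09). The seed of the 3p arm, AGUGCAA, is that of the miR-130 and miR-301 family, and the 5p arm has another, CUCUUUC. Of 6 tested arms of the family 2 were repressed, and both were these arms of Mir130b. miR-130a-3p, with a log2 fold change of -0.62, was not called. With the GC trend removed, 3 arms of the family were repressed. The 3p arms of Mir7-2 and Mir7b also fell. miR-7a-2-3p had 84, 108, 95 and 103 counts at P0 and 17, 12, 6 and 4 at P16 (log2 fold change -3.08, SE 0.43, edgeR FDR 5.34e-11). For miR-7b-3p the counts were 26, 26, 39 and 57 at P0 and 8, 0, 2 and 2 at P16 (log2 fold change -3.42, SE 0.59, edgeR FDR 2.2e-07).

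Mir296 and Mir298 lie side by side in the imprinted Gnas region of chromosome 2 (chr2:174267047-174267585, minus strand), and all 4 of their arms were repressed. miR-296-3p showed the largest fall among called miRNAs that averaged 100 CPM or more at either age, from 248, 247, 188 and 190 counts at P0 to 7, 7, 16 and 6 at P16. In levels this was 1198 ± 112 against 60.4 ± 31.6 CPM, a log2 fold change of -4.31 (SE 0.42, edgeR FDR 9.44e-22). The other arm of the same hairpin, miR-296-5p, fell less, from 4733 ± 314 to 1460 ± 663 CPM (log2 fold change -1.70, SE 0.34, edgeR FDR 1.18e-05). Before birth, at E16, miR-296-3p had a mean of 2168 CPM and miR-296-5p of 1825 CPM. By P0 the mean of miR-296-3p was lower, at 1198 CPM, and that of miR-296-5p was higher, at 4733 CPM. miR-298-5p fell from 4261 ± 530 to 902 ± 436 CPM (log2 fold change -2.24, SE 0.35, edgeR FDR 4.32e-09). miR-298-3p was near the floor, with 5, 3, 2 and 2 counts at P0 and none at P16, and its FDR of 0.0337 rose to between 0.0574 and 0.0791 without P0 replicate 1 or any of P16 replicates 1, 3 and 4.

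Mir483, in an intron of the fetal growth factor gene Igf2 on chromosome 7, lost both arms, with miR-483-5p falling from 78, 76, 128 and 70 counts to 7, 19, 6 and 11 (log2 fold change -2.74, SE 0.43, edgeR FDR 9.29e-09). miR-483-3p fell from 304 ± 78.3 to 53.1 ± 45.8 CPM. Of 49 tested arms of the large imprinted miR-379 to miR-410 cluster on chromosome 12, 3 were repressed, against 7.53% of all tested miRNAs, and none was induced. The median log2 fold change was 0.40. Without P16 replicate 2 there were 2 induced arms, miR-379-5p and miR-382-5p, and 4 repressed, with a median of -0.05. The repressed arms were miR-409-3p, from 1361 ± 350 to 263 ± 82.3 CPM, miR-323-3p, from 217, 276, 218 and 427 counts to 45, 60, 43 and 25, and miR-487b-3p, from 166 ± 28.3 to 48.8 ± 20.1 CPM. The log2 fold changes of these arms were -2.37, -2.43 and -1.75. miR-381-3p of this cluster had at most 2 counts in any P0 or P16 library, which allows no fold change. In the neighbouring group of 22 tested arms around Rtl1 and Meg3, miR-370-3p was repressed (27, 23, 14 and 21 counts against 3, 2, 4 and 0, log2 fold change -2.94) and miR-673-5p was repressed (log2 fold change -1.84), while miR-3071-3p was induced.

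Among the miRNAs of mesenchyme, miR-214-3p was both one of the most counted miRNAs at birth and strongly repressed. It is processed from Dnm3os (Mir214, chr1:162223368-162223477, plus strand), a noncoding RNA of the embryonic skeleton and connective tissue. Counts were 11033, 14969, 7455 and 12166 at P0 and 2049, 2039, 1419 and 1172 at P16. The level fell from 61847 ± 10907 to 11135 ± 3244 CPM (log2 fold change -2.47, SE 0.35, edgeR FDR 9.53e-11). At E16 the mean was 44857 CPM, and the step from E16 to P0 gave an FDR of 0.43. The mesenchymal list had 1 repressed and no induced arm of 7 tested. miR-143-3p, of smooth muscle, had 242, 119, 55 and 92 counts at P0 and 827, 154, 532 and 329 at P16, a log2 fold change of 2.06 (SE 0.35, edgeR FDR 1.24e-07). It was not called because P16 replicate 2 lay below P0 replicate 1 in CPM, and it was induced without that P16 library. miR-145a-5p, a miRNA of smooth muscle and pericytes, was at 4341 ± 278 CPM at P0 and 6131 ± 3111 at P16 with an edgeR FDR of 0.303. In bulk samples a smaller share of a cell type and less of its RNA per cell cannot be told apart.

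**Figure D2:**
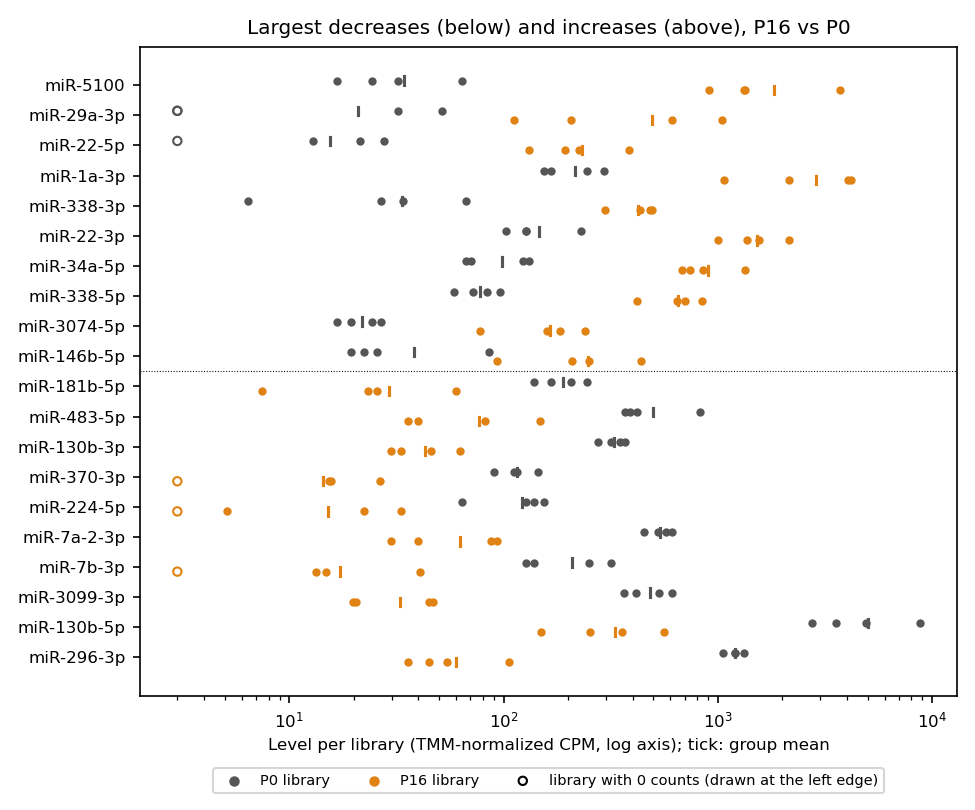
Level of the 10 miRNAs with the largest increase (upper rows) and the 10 with the largest decrease (lower rows) among called miRNAs that averaged 100 CPM or more at either age, in TMM-normalized CPM per library (log axis), with P0 libraries in grey, P16 libraries in orange, group means as ticks and libraries at 0 counts as open circles at the left edge. In each of the 20 rows no P16 library lies among the P0 libraries, because a call required this.

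Among called miRNAs that averaged 100 CPM or more at either age, the largest increase belonged to miR-5100. It is encoded in an intron of Mief2 (chr11:60728663-60728726, plus strand) and belongs to the later numbered miRBase entries. Of these entries, 8 of 326 tested were induced and 4 repressed, against 4.64% and 7.53% of all tested miRNAs. miR-5100 had 12, 5, 5 and 3 counts at P0 and 261, 479, 199 and 122 at P16. The log2 fold change was 5.71 (SE 0.46, edgeR FDR 1.24e-32), and 5.09 without P16 replicate 2, which was the highest library. Its E16 counts of 7 and 9 were as low as those at birth. A further late entry, miR-6412, rose from 8, 30, 14 and 28 counts to 146, 122, 38 and 31 (log2 fold change 2.32, edgeR FDR 7.06e-07). How reads with several matches were treated is not given in the sources used here. Whether the counts of miR-5100 and miR-6412 came from their annotated loci alone was not tested. In the opposite direction moved miR-6715-3p, which overlaps an exon of Tectb, the gene of a tectorial membrane protein (chr19:55192678-55192734, plus strand). Its counts were 103, 164, 88 and 89 at P0 and 10, 13, 19 and 20 at P16 (log2 fold change -2.51, SE 0.41, edgeR FDR 3.89e-08).

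Both arms of Mir22 were induced, from an exon of its noncoding host Mir22hg on chromosome 11. miR-22-3p, a broadly expressed miRNA, had 43, 26, 16 and 23 counts at P0 and 420, 129, 233 and 183 at P16. It rose from 147 ± 56.8 to 1517 ± 478 CPM (log2 fold change 3.36, SE 0.39, edgeR FDR 1.39e-15). miR-22-5p rose from 4, 0, 2 and 5 counts to 75, 17, 29 and 30 (log2 fold change 3.90, SE 0.59, edgeR FDR 1.74e-09). miR-34a-5p, a target of p53, had 23, 27, 11 and 12 counts at P0 and 133, 95, 202 and 114 at P16 (log2 fold change 3.19, SE 0.41, edgeR FDR 6.61e-13). The related miR-34b-3p, a miRNA of ciliated cells, had a log2 fold change of -0.77 with an edgeR FDR of 0.255.

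Neural and glial miRNAs were divided. miR-338, from an intron of Aatk (chr11:120014765-120014862, minus strand), promotes the maturation of myelinating glia, and both of its arms were induced. miR-338-3p had 5, 7, 1 and 12 counts at P0 and 96, 38, 73 and 58 at P16 (log2 fold change 3.63, SE 0.49, edgeR FDR 1.22e-11). miR-338-5p had 18, 12, 13 and 13 counts at P0 and 137, 54, 127 and 86 at P16 (log2 fold change 3.07, SE 0.43, edgeR FDR 5.34e-11). E16 counts were similarly low, 12 and 7 for the 3p arm and 12 and 17 for the 5p arm. The other myelin miRNA, miR-219, gave only a few counts in any library, and miR-219a-1-3p went from 4, 5, 1 and 5 counts to 3, 0, 0 and 0 without a call. miR-124-3p, the defining miRNA of neurons, had 32, 32, 5 and 26 counts at P0 and 79, 65, 92 and 59 at P16 (log2 fold change 1.94, SE 0.39, edgeR FDR 1.33e-05), but its E16 mean of 1038 CPM lay above the P16 mean of 491 ± 91.2. miR-9-5p, of neural progenitors and neurons, was at 385 ± 159 CPM at P0 and 316 ± 163 at P16 (edgeR FDR 0.664). Of 13 tested brain-enriched arms 1, miR-138-5p, was induced, from 2, 12, 4 and 2 counts to 22, 9, 31 and 29. The log2 fold change was 2.46, and the call was lost to overlap without either E16 library (2.38 in both cases) or without P0 replicate 1 (2.12).

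Several miRNAs that mark other cell types rose, and they are given here with their whole lists. Immune miRNAs summed to 2511 to 3342 CPM at P0 and 7367 to 29925 at P16. Most of this sum was miR-150-5p, at 1874 to 2911 CPM at P0 and 5893 to 28788 at P16. All 9 tested arms of the list had positive values and 4 were induced, and without P16 replicate 2 there were 6, with miR-146a-5p and miR-21a-5p. Among the 9, miR-142a-5p had 0 counts in every P0 library, which fixed its sign. miR-150-5p, of mature lymphocytes, had 350, 500, 453 and 496 counts at P0 and 3300, 3696, 1002 and 790 at P16 (log2 fold change 2.55, SE 0.35, edgeR FDR 1.42e-11), and P16 replicates 1 and 2 lay well above the others. miR-223-3p, of myeloid cells, rose from 228 ± 25.4 to 576 ± 170 CPM (log2 fold change 1.34, edgeR FDR 0.00314), below its E16 mean of 1439 CPM. miR-146b-5p rose from 16, 4, 4 and 4 counts to 49, 12, 66 and 28 (log2 fold change 2.68, edgeR FDR 2.74e-06), and lost its call to overlap without either E16 library (2.61 in both cases). miR-142a-3p, of blood cells, had 3, 3, 1 and 2 counts at P0 and 4, 0, 0 and 12 at P16 and was not called. Erythroid miRNAs summed to 5.54 to 34.1 CPM at P0 and 7.79 to 40.9 at P16, and their defining member miR-451a was at 0 in all 8 libraries. The part of blood cells in the other results was not tested.

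Of the muscle miRNAs, miR-1a-3p had 55, 50, 24 and 30 counts at P0 and 789, 137, 632 and 288 at P16 (log2 fold change 3.73, SE 0.38, edgeR FDR 5.13e-20). The muscle list of 14 had 6 members with a count and 2 tested, and it summed to 219 to 483 CPM at P0 and 1098 to 4315 at P16. Its second tested member, miR-206-3p, of skeletal muscle, had 10, 48, 10 and 29 counts at P0 and 5, 4, 15 and 7 at P16 (log2 fold change -1.31, edgeR FDR 0.0842). miR-133a-3p and miR-208b-3p were at 0 in every cochlea library. Whether muscle tissue in the dissections took part in the rise of miR-1a-3p was not tested.

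miR-126a-3p, the endothelial miRNA of the Egfl7 gene, had 267, 169, 115 and 192 counts at P0 and 1366, 263, 533 and 369 at P16. It rose from 1014 ± 309 to 3833 ± 2190 CPM (log2 fold change 1.92, SE 0.34, edgeR FDR 5.86e-07), a call lost to overlap when libraries were scaled by their totals. The cartilage miRNA Mir140, in Wwp2, gave 2 induced arms. miR-140-5p had 43, 30, 25 and 37 counts at P0 and 177, 53, 159 and 121 at P16 (log2 fold change 2.14, SE 0.38, edgeR FDR 4.07e-07), and miR-140-3p had a log2 fold change of 1.23. All 4 tested arms of miR-140 and miR-455 had positive values, and without P16 replicate 2 miR-455-5p was induced as well.

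The miR-23, miR-27 and miR-24 clusters, which are expressed in vessels and muscle, had 3 induced arms of 10 tested and a median of 1.88, but 1 induced arm when libraries were scaled by their totals and 2 with only the 8 libraries of P0 and P16 in the fit. miR-24-3p had 1413, 811, 500 and 852 counts at P0 and 4938, 1377, 4645 and 3754 at P16, and rose from 4864 ± 1903 to 23719 ± 8962 CPM (log2 fold change 2.29, SE 0.34, edgeR FDR 1.3e-09). This call too was lost to overlap when libraries were scaled by their totals. miR-24-2-5p had 2, 0, 0 and 1 counts at P0 and 24, 6, 18 and 11 at P16, a ratio of 23.5 (95% counting interval 7.67 to 117). The induced miR-3074-5p, with 5, 5, 3 and 3 counts at P0 and 36, 10, 24 and 32 at P16, is encoded on the strand opposite to miR-24 and is complementary to it over 20 bases:
miR-24-3p: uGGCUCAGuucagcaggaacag
miR-3074-5p: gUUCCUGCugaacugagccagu
Likewise, the induced miR-3071-3p is complementary over 20 bases to miR-136-5p, which had 7 counts in all 8 libraries together. Whether reads were counted by strand is not given in the sources used here, so the values of miR-3074-5p and miR-3071-3p are uncertain.

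The levels before birth separated the induced miRNAs. For a number of them P0 was a low point. miR-29a-3p had 174 and 266 counts at E16, and the log2 change from E16 to P0 was -4.52 (edgeR FDR 3.05e-15). For miR-126a-3p that change was -2.59, for miR-140-5p -2.68, for miR-223-3p -2.66 and for miR-30b-5p -2.29, with edgeR FDRs of at most 4.51e-07. These values share the P0 libraries with the rise, and the mean GC content of the counts at P0 was above that at E16 and in 3 of the P16 libraries. With the GC trend removed, the rise of miR-29a-3p was 4.40 and that of miR-126a-3p 1.77 on the log2 scale. A different course was taken by let-7b-5p, which had a mean of 789 CPM at E16, 4025 CPM at P0 and 11852 CPM at P16, and by miR-150-5p, from 645 to 2493 and 14556 CPM. The miRNAs miR-5100, miR-338-3p and miR-338-5p were low at both early ages.

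**Figure D3:**
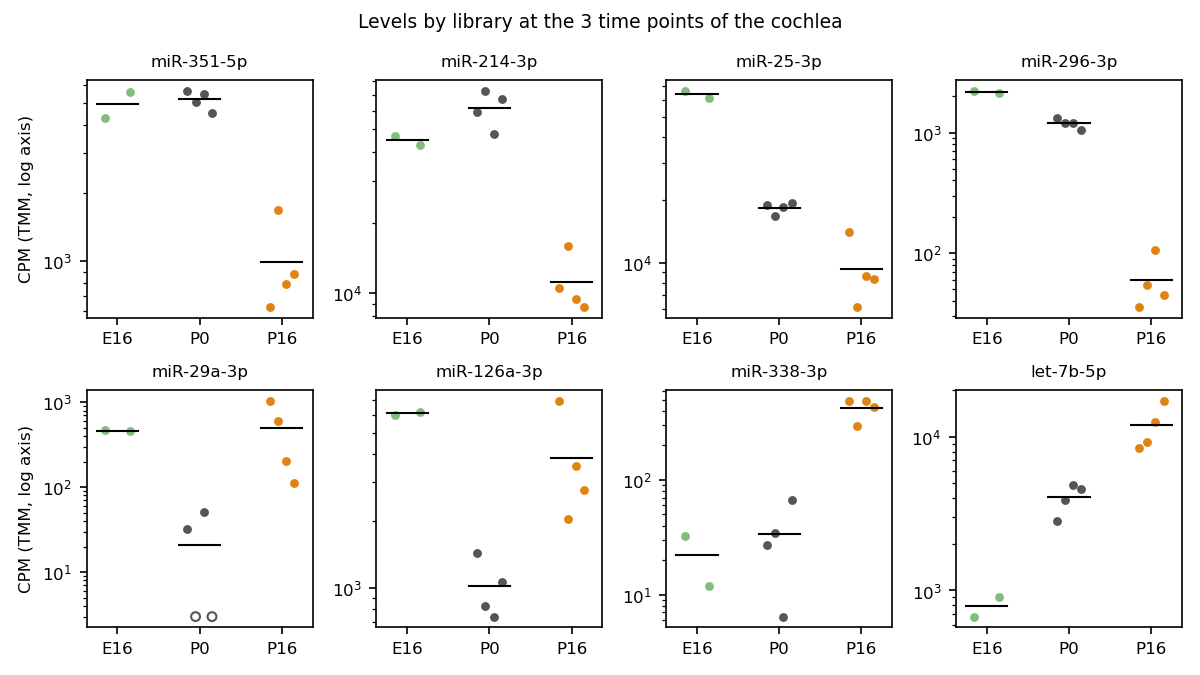
Level in each library (TMM-normalized CPM, log y axes) of 8 miRNAs at E16 (2 libraries), P0 (4) and P16 (4), with the mean as a line and libraries at 0 counts as open circles at the lower edge. miR-351-5p and miR-214-3p were high until P0 and fell by P16, miR-25-3p fell at both steps, miR-29a-3p and miR-126a-3p were lowest at P0, miR-338-3p rose after P0 and let-7b-5p rose at both steps.

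Of the 10 most counted miRNAs, miR-214-3p and miR-574-3p were called. miR-125a-5p, which took the most counts, was at 334889 ± 56608 CPM at P0 and 318231 ± 171847 at P16 (log2 fold change -0.07, SE 0.35, edgeR FDR 0.917). Its P16 value was carried by replicate 2 with 575022 CPM, and without that library the log2 fold change was -0.53 with an FDR of 0.0269. miR-125b-5p had a log2 fold change of 0.36 with an SE of 0.34. miR-574-3p was the most counted induced miRNA, from 19152 ± 2913 to 40352 ± 16867 CPM (log2 fold change 1.08, SE 0.33, edgeR FDR 0.00987), but its FDR was 0.075 without P0 replicate 1 and 0.0553 without P0 replicate 2.

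Both arms of a hairpin were compared because they derive from one transcript. Arms such as miR-24-3p, miR-29b-3p and miR-138-5p are made from more than 1 hairpin and enter more than 1 pair. The pairs are therefore not independent, and such arms are not tied to 1 transcript. Of 187 pairs with both arms tested and both sequences in the RefSeq table, 13 had both arms called. These 13 pairs moved in the same direction, 5 up and 8 down. In 35 pairs 1 arm was called, and the other arm had the same sign in 30 of them. The 5 exceptions were the pairs of let-7c, miR-182, miR-409, miR-574 and miR-877. In miR-182 the 3p arm fell while the 5p arm, with a log2 fold change of 0.37, was not called. Among the 139 pairs without a call 86 had the same sign. Pairs with an arm that lacked a sequence are not in this tally, among them miR-140 and miR-150, each with both arms induced (the call of miR-150-3p, on 22, 9, 2 and 4 counts at P16, was lost without P16 replicate 1).

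**Figure D4:**
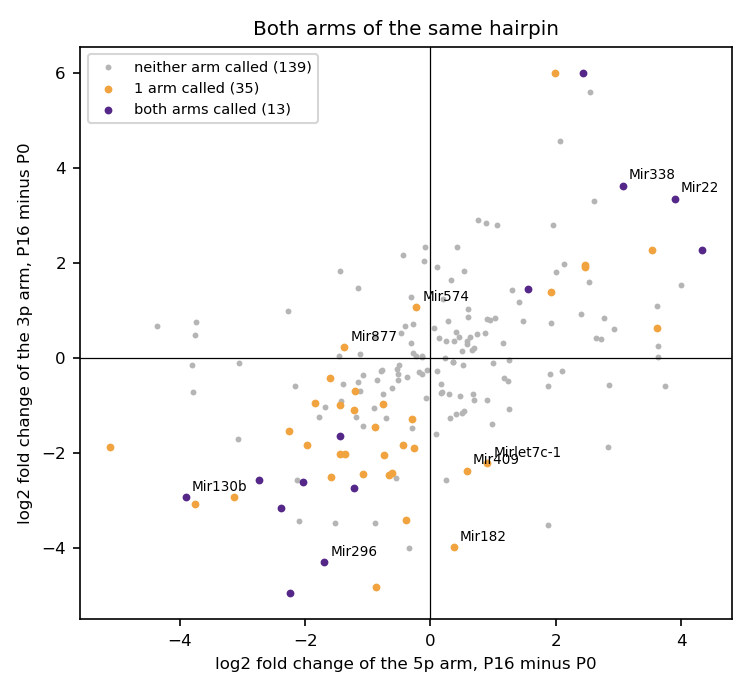
Log2 fold change (P16 minus P0) of the 3p arm (y axis) against that of the 5p arm (x axis) for 187 pairs of arms. Both arms of each pair were tested and had a sequence in the RefSeq table. An arm made from more than 1 hairpin can appear in more than 1 pair. The 13 pairs with both arms called (purple) lie at the lower left and upper right, and 5 of the 35 pairs with 1 called arm (orange) have arms of opposite sign.

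In sequence, the induced miRNAs were poorer in G and C. Their median GC content was 45.5% over the 30 of 37 with a sequence, against 54.5% for 57 of the 60 repressed miRNAs and 54.5% for 591 of the 700 miRNAs without a call. The same measure differed between the libraries, as given above, and its part in the calls was not tested further than by removing the trend, which left 80 of the 97 calls, while 10 could not be tested for lack of a sequence.

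By position, 7 stretches of the genome held called hairpins within 10000 bases of each other on the same strand. In each of them the called miRNAs moved in the same direction. Called miRNAs without a hairpin position in the reference, among them miR-23b-3p, miR-351-5p and miR-351-3p, are not in this tally. The stretches not yet described were Mir181a-2 and Mir181b-2 on chromosome 2 (chr2:38852735-38853918, plus strand), both repressed, and the miR-183 cluster (chr6:30165918-30169737, minus strand) with its 3p arms. Of 6 tested arms of the miR-181 family, which acts in differentiation of blood and neural cells, 3 were repressed, with a median log2 fold change of -1.42. With the GC trend removed or without P16 replicate 2 there were 4. miR-181a-5p, which held most of the family's counts, was not called (log2 fold change -0.43). The repressed miR-181d-3p had 2 counts in P16 replicate 1 and none in the other P16 libraries. miR-181b-5p, also encoded on chromosome 1, had 31, 50, 32 and 25 counts at P0 and 5, 3, 9 and 1 at P16 (log2 fold change -2.66, SE 0.52, edgeR FDR 7.81e-06).

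Finally, a few repressed miRNAs belonged to none of these groups. miR-3099-3p, from an intron of the imprinted gene Usp29 on chromosome 7, had 68, 85, 95 and 96 counts at P0 and 4, 6, 3 and 6 at P16 (log2 fold change -3.88, SE 0.48, edgeR FDR 1.06e-13). miR-224-5p, in an intron of the GABA receptor gene Gabre, had 26, 26, 10 and 28 counts at P0 and 1, 0, 5 and 3 at P16 (log2 fold change -2.98, SE 0.63, edgeR FDR 3.83e-05). miR-210-3p, which is induced by hypoxia, fell from 896 ± 282 to 221 ± 44.3 CPM (log2 fold change -2.02, SE 0.38, edgeR FDR 2.16e-06). Lists without any call included the miR-26 family (5 tested), miR-204 and miR-211 (3), miR-132 and miR-212 (3), miR-221 and miR-222 (3), miR-193 and miR-365 (6), the single tested Hox cluster miRNA and the rodent Sfmbt2 cluster, of which 40 arms were tested with a median of 0.28. In the miR-26 family, miR-26a-5p had a log2 fold change of 1.26 and an edgeR FDR of 0.00282, but its libraries overlapped, and without P16 replicate 2 there were 2 induced arms and with the GC trend removed 1. Of miR-193 and miR-365, 2 arms were induced with the GC trend removed, miR-193b-3p and miR-193b-5p, and 1 was under RLE size factors, DESeq2 or without the later numbered entries.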

How the data were processed

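The authors deposited 1 table of raw counts per mature miRNA and library under miRBase names. The submitters' processing notes name Bowtie2 2.2.5, mm10 and DESeq2, and the study's methods give Bowtie with a MirGeneDB reference. The treatment of reads with several matches and the counting step are not given in the sources used here, so members of a family that differ by few bases may share reads. The kits were Direct-zol for RNA and SMARTer smRNA-Seq for libraries. PCR copies cannot be told from molecules, so intervals and floors cover counting error only.

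The deposited counts were tested with edgeR 4.0.16 (R 4.3.3), TMM and the quasi-likelihood F test in 1 fit of the 10 cochlea libraries, with Benjamini-Hochberg FDR over 797 miRNAs. SEs were obtained by dividing the size of a log2 change by the root of its F. A group at 0 was set at 3 counts per library. The exact permutation test (2-sided, 0.5 counts added) of each miRNA whose libraries did not overlap gave its smallest p, 0.0286. Alternatives used limma 3.58.1 and DESeq2 1.42.0 among others, and the GC alternative was chosen after seeing the data. On simulated counts (797 miRNAs, drawn with the fitted levels, depths and spread), 0 of 597 unchanged miRNAs were called. The simulation did not include the composition of P16 replicate 2 or a GC trend, so it gives no rate of false calls under these. Sequences and hairpin positions are from RefSeq (GRCm38.p6), and host genes from GENCODE (GRCm38, the mm10 sequence). Neighbouring seed, arm and cluster members, and list members whose call moved under an alternative, were named after their values were seen. The other named miRNAs were the 10 largest increases and decreases at 100 CPM or more, up to 4 per list, the 10 most abundant and those the study names. Members and lists were chosen with earlier results of these data known. Figures were drawn with matplotlib 3.10.9.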

Additional observations from a re-analysis of the deposited data

Results flagged for a closer look

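In groups of 4 libraries, 13 values of named miRNAs lay apart from the other libraries of their age by Dixon's test, of 216 groups tested, and chance gives such a value in about 5% of groups. In P16 replicate 2 these were miR-5100 (3731 CPM), miR-193b-5p (1075), miR-204-3p (1340), miR-125a-5p (575022) and miR-182-3p (7.79, a single count where the others had none), each the highest P16 library. In P16 replicate 1 it was miR-181d-3p (10.2 CPM, 2 counts where the others had none). At P0, replicate 1 was the highest for miR-146b-5p (85.7 CPM), miR-182-5p (1949), miR-322-5p (2580) and miR-20a-5p (321), and replicate 3 for miR-125b-5p (165149), miR-204-3p (1273) and miR-483-5p (823).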

How the results depend on the processing

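The 97 calls became 88 to 134 when each library in turn was left out, with 30 to 61 induced and 52 to 73 repressed, and the highest values of each came without P16 replicate 2. Without the criterion on overlap 66 were induced and 64 repressed. Other settings gave 86 to 111 calls (without the criterion on overlap, 130), and 68 of the 97 were called in every setting that tested them. DESeq2 called 111 and limma 104. The replicate numbers did not pair the samples: same-numbered P0 and P16 libraries correlated at -0.323 to 0.164 in their deviations, 0 of 4 correlated best with their own number, and the replicate block gave 86 calls (32 induced, 54 repressed). RLE size factors moved the median log2 fold change of all miRNAs from 0.10 to 0.20, quantile normalization in limma to -0.03, where miR-183-5p fell by 0.67 (FDR 0.00442). Of 2118 values of named miRNAs under alternatives, 2013 kept their side of the threshold and 0 reversed, though 37 changed sign with an FDR over 0.05 on both sides. Depth limits the calls: on the simulated counts, 48% of 4-fold changes were recovered, and 83.3% at 100 CPM or more. Those counts left out the composition of P16 replicate 2.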
